A study of Mus musculus with 8 samples.

Results

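The Hippo pathway is a kinase cascade that restrains growth, and 10 of its genes were followed in the hearts of newborn mice: the coactivators Yap1 and Wwtr1, their DNA-binding partners Tead1 and Tead4, the antagonist Vgll4, the kinases Stk3, Stk4, Lats1 and Lats2, and the scaffold Sav1. They were chosen as a named list of pathway genes and found by symbol, with the locus of the highest mean value taken where a symbol has several loci. All 10 were found among the 80155 loci of the data. Male Hsd:ICR(CD-1) mice gave whole hearts for RNA-seq, 4 at postnatal day 1 (P1) and 4 at postnatal day 7 (P7), with 1 library per heart. The mice are of an outbred stock with no allele or treatment named, and the atrial appendages had been cut away in both groups before freezing. The comparison of P7 with P1 asks how the heart changes over its first week after birth.

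In the cascade, STK3 and STK4 (the MST kinases), held by the scaffold SAV1, activate LATS1 and LATS2, which phosphorylate YAP1 and its paralogue TAZ, the product of Wwtr1. Phosphorylated YAP1 and TAZ are kept in the cytoplasm or degraded. Otherwise they enter the nucleus, bind TEAD proteins and turn on growth genes, while VGLL4 competes for the same TEAD surface. YAP1 activity is known to drive cardiomyocyte proliferation, and mouse cardiomyocytes largely stop dividing in the first week of life. Much of this control acts on proteins, which RNA-seq does not measure.

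Promoter windows of the antagonist and of both coactivators are shown because TEAD factors bind a short core, GGAATG, and these genes act on or through TEAD. The windows run from 250 bases before to 50 after the RefSeq start site, on the gene's strand in GRCm38.p6, and the capitals mark the core.
Vgll4, chr6:114969154-114969453, minus strand: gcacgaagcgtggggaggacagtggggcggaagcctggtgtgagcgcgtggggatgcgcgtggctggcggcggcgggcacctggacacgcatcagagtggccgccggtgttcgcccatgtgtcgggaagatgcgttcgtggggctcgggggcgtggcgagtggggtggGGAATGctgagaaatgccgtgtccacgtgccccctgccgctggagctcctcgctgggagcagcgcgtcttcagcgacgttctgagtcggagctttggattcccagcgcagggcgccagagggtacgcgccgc
Yap1, chr9:8004547-8004846, minus strand: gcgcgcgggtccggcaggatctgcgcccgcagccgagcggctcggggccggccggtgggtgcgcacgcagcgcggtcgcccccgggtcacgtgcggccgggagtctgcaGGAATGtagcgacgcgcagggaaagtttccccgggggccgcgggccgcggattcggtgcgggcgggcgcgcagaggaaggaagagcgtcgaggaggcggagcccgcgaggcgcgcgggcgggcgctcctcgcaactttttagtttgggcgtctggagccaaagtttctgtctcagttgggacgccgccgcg
Wwtr1, chr3:57575861-57576160, minus strand: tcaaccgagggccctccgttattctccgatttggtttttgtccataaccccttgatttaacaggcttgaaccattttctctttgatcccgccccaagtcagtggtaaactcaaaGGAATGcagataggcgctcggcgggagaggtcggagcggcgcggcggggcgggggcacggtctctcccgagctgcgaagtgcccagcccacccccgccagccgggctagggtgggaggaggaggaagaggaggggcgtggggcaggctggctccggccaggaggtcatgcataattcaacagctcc

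The core lay 82 bases before the Vgll4 start, 141 before that of Yap1 and 136 before the Wwtr1 start shown. GGAATG or its reverse complement CATTCC was searched on both strands in the 9 RefSeq windows of the 7 members that had one. It was found in windows of 5 of them, Yap1, Wwtr1, Lats2, Sav1 and Vgll4, and in no window of Lats1 or Stk4. By window this is 6 of 9, and the 2 overlapping Wwtr1 windows hold the same match. Of all 32851 promoter windows of 300 bases, 14.7% held the core, and of the genes with a window 16.6% had it in at least 1. A match is a description of the letters and shows no binding.

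Levels are in FPKM as deposited, which scales fragments to the length of a locus and to the size of the library, so levels of different genes can be set side by side. Loci that reached FPKM of 1 in at least 1 heart were compared with limma on log2(FPKM + 1), a scale that understates changes of low genes. There were 43172 of them, 17960 with a gene symbol, and p-values were adjusted over all 43172. A call required both an adjusted p under 0.05 and mean FPKM that differed at least 1.5-fold. Of the annotated loci tested, 7.74% were called higher and 0.401% lower in P7, and their median log2 fold change (log2FC) was 0.19. In numbers these were 1390 higher and 72 lower, against 1348 and 765 with median-ratio scaling between the hearts. The size factors of that scaling, computed over annotated loci, were 0.776 to 1.165 in P1 and 0.939 to 1.296 in P7, and after a correction of each heart for the GC content of the transcripts 385 loci were called higher and 26 lower. The smallest FPKM steps gave each heart a depth of 0.627 to 1 relative to the deepest. P7 replicate 3, at 0.718, was within this range, although the study's mapping summary lists far fewer reads for it than for the others. P1 replicate 3 had 28662 loci at FPKM of at least 1, and the other hearts had 20269 to 22292. Summed FPKM was 2136936.5 in P7 replicate 4 and 1038649.8 to 1400587.1 in the others. Cardiomyocyte markers summed to 22451 to 38913 FPKM in P1 and 30737 to 46321 in P7, and no marker of the 9 was at 0. In whole hearts, a change in the share of a cell type and a change in RNA per cell cannot be told apart.

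Of the 10 Hippo-YAP genes, Vgll4 was called higher in P7 by limma, none was called lower, and 9 did not pass the test. Against the background of 7.74%, 1 in 10 is not a result about the list as a whole. At an unadjusted p under 0.05 limma also gave 1 higher and 0 lower, where 25.6% of annotated loci were higher and 4.1% lower at that cut. Of the members, 9 had a positive and 1 a negative log2FC, with a median of 0.31, where 67.6% of the annotated loci were positive. The plot of FPKM by heart shows the spread behind these values.

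**Figure D1:**
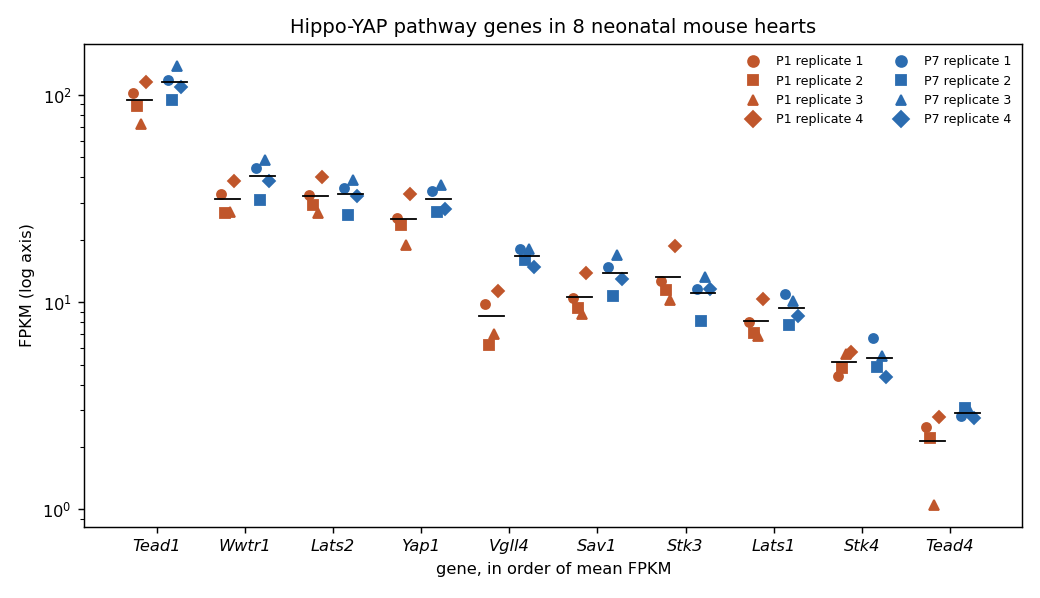
FPKM (log axis) of the 10 Hippo-YAP genes in each of 4 P1 hearts (orange) and 4 P7 hearts (blue), ordered by mean, with a black line at each stage mean. The P7 hearts all lie above the P1 hearts for Vgll4, and for the other 9 genes the stages overlap.

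Vgll4, which carries TEAD-binding Tondu motifs and blocks YAP1 from TEAD, had the largest log2FC of the members in the FPKM as deposited. After GC correction, with or without median-ratio scaling, Sav1 stood above it. It was at 9.82, 6.24, 6.99 and 11.3 FPKM in P1 replicates 1 to 4 and at 18.0, 15.9, 18.0 and 14.8 FPKM in P7 replicates 1 to 4. The P7 hearts were all above the P1 hearts, as was the case for 17.3% of annotated loci, and replicates 1 and 4 were the higher P1 hearts. The mean went from 8.59 ± 2.38 FPKM (SD, n = 4) at P1 to 16.7 ± 1.60 FPKM (SD, n = 4) at P7, a ratio of 1.94. The log2FC was 0.91 (SE 0.21, 95% interval 0.47 to 1.36), with a limma adjusted p of 0.0324. The locus spans chr6:114643097-114969994 (GRCm38).

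The Vgll4 call held in 6 of 18 alternatives and was lost in 12, which include fits with a heart left out. Of the 6, summed loci leaves the Vgll4 values as they were, since the symbol has no other locus. The call held with median-ratio scaling (log2FC 0.66, limma adjusted p = 0.0158). With each heart corrected for GC content, the log2FC was 0.59 (limma adjusted p = 0.163), and with median-ratio scaling added, an alternative chosen after seeing the data, it was 0.32 (limma adjusted p = 0.168). The Vgll4 transcript has 56.0% GC, the second highest of the values used for the members, after Tead4. Leaving out P1 replicate 1, 2 or 3 or any single P7 heart, which also leaves fewer samples, ended the call, with log2FC between 0.79 and 0.98. Without P1 replicate 4 the log2FC was 1.04 and the gene was called. The direction was the same in all 18 alternatives, but most of them could not turn it. Changes of filter, trend or block alone, and summed loci, left the log2FC at 0.91. Leaving out a heart or lowering the pseudocount could not turn the sign, since the stages did not overlap. Only settings with median-ratio scaling or GC correction could, and there the log2FC was 0.32 to 0.66.

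**Figure D2:**
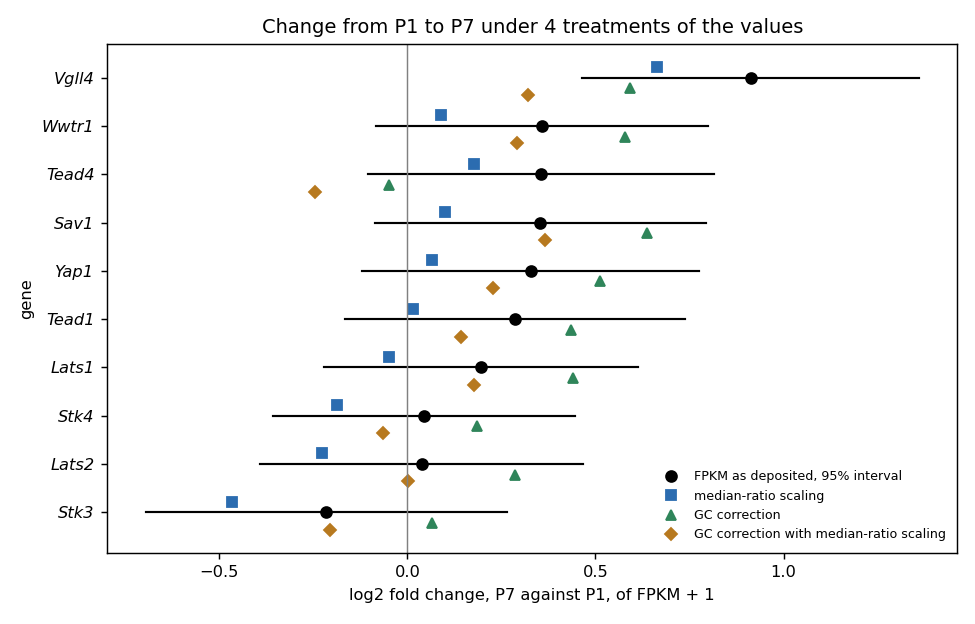
The log2FC of each member on the log2(FPKM + 1) scale, P7 against P1, from the FPKM as deposited (circles, with 95% intervals from limma) and after median-ratio scaling, GC correction, or both. Only the Vgll4 interval leaves out 0, and Vgll4 goes from 0.91 to 0.32 when both corrections are applied.

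The coactivators Yap1 and Wwtr1 were both well expressed at each stage and neither passed the test. Yap1, which carries the growth output of the pathway in cardiomyocytes, was at 25.4, 23.5, 19.0 and 33.2 FPKM in P1 and at 34.4, 27.3, 36.7 and 28.2 FPKM in P7. The lower P7 hearts lay within the P1 range. Its log2FC was 0.33 (SE 0.21, 95% interval -0.12 to 0.78), with a limma adjusted p of 0.399. Wwtr1, which encodes TAZ, was at 33.3, 26.9, 27.1 and 38.4 FPKM in P1 and at 44.3, 31.1, 48.7 and 38.4 FPKM in P7. P7 replicates 1 and 3 were above every P1 heart, and replicates 2 and 4 were not. Its log2FC was 0.36 (SE 0.20, 95% interval -0.08 to 0.80), with a limma adjusted p of 0.363. Both intervals hold 0. With median-ratio scaling the log2FC was 0.06 for Yap1 and 0.09 for Wwtr1, and with GC correction 0.51 and 0.58.

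Tead1, the DNA-binding partner known as the main TEAD of heart muscle, had the highest level of the members in every heart. It was at 102, 88.3, 72.7 and 116 FPKM in P1 and at 118, 95.1, 138 and 110 FPKM in P7. The stages overlapped, with P1 replicate 4 above P7 replicates 2 and 4. The log2FC was 0.29 (SE 0.21), with a limma adjusted p of 0.446, and with median-ratio scaling it was 0.02. Tead4, best known from the trophectoderm of the early embryo and from skeletal muscle, had the lowest level of the members in each heart. It was at 2.48, 2.20, 1.05 and 2.78 FPKM in P1 and at 2.82, 3.08, 2.96 and 2.75 FPKM in P7. P1 replicate 3 stood below the rest, and P7 replicate 4 lay just under the highest P1 heart. The log2FC was 0.36 (SE 0.21), with a limma adjusted p of 0.381, and after GC correction it was -0.05. Without P1 replicate 3 it was 0.17. The Tead4 transcript has 58.1% GC, the highest of the values used for the members. Going by the smallest FPKM steps and the transcript length, about 53 to 158 fragments stand behind each Tead4 value, against 11920 to 21118 for Tead1.

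The TEAD family has 2 further genes, Tead2, best known from embryonic tissues, and Tead3, best known from placenta and muscle. Tead2 was at 31.1, 25.7, 23.0 and 21.7 FPKM in P1 and at 47.9, 43.1, 41.8 and 33.2 FPKM in P7, and Tead3 was at 4.54, 3.83, 3.51 and 5.45 FPKM in P1 and at 9.0, 10.2, 6.30 and 7.23 FPKM in P7. For both genes the stages did not overlap, with P7 higher, as was the case for 17.3% of annotated loci. Neither passed the threshold, with a log2FC of 0.69 (SE 0.19) and a limma adjusted p of 0.0706 for Tead2, and of 0.78 (SE 0.20) and a limma adjusted p of 0.0524 for Tead3. Their transcripts have 57.9% and 58.1% GC. Of the summed TEAD FPKM, Tead1 made up 72.5% to 79.4% in P1 and 62.8% to 73.0% in P7, and Tead2 made up 14.9% to 22.9% and 21.7% to 28.5%. Tead3 held 3.19% to 3.74% in P1 and 3.33% to 6.74% in P7, and Tead4 1.05% to 1.91% and 1.56% to 2.03%. The ranges of all 4 shares overlapped between the stages and were not tested.

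**Figure D3:**
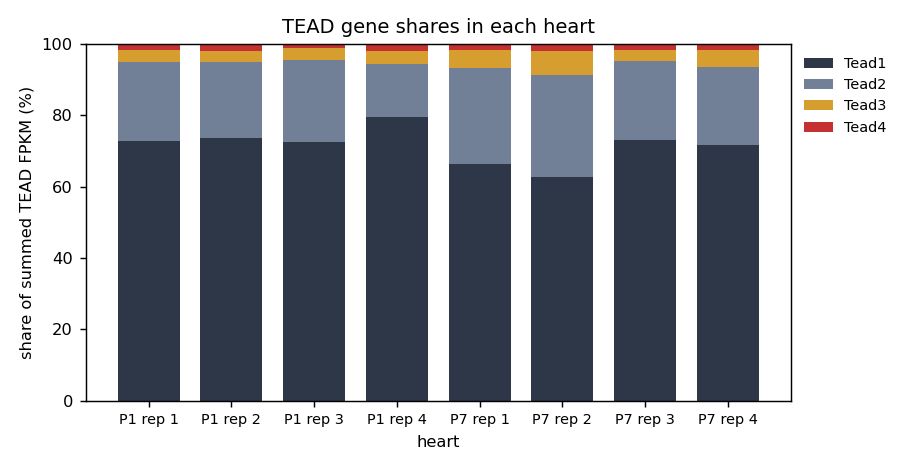
Share of each TEAD gene in the summed FPKM of Tead1 to Tead4, as stacked bars for each of 4 P1 and 4 P7 hearts. Tead1 makes up more than 60% in every heart and Tead4 at most 2.03%.

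The upstream kinases Stk3 (MST2) and Stk4 (MST1) and their scaffold Sav1 did not pass the test. Stk3 was the only member with a negative log2FC. It was at 12.6, 11.4, 10.2 and 18.7 FPKM in P1 and at 11.6, 8.11, 13.3 and 11.5 FPKM in P7. P1 replicate 4 was the highest heart and P7 replicate 2 the lowest. The log2FC was -0.22 (SE 0.22), with a limma adjusted p of 0.57. It was -0.47 (limma adjusted p = 0.0382) with median-ratio scaling, where the ratio of means stayed short of the 1.5 that a call needs, and 0.07 after GC correction. Without P1 replicate 4 it was -0.05. The Stk3 transcript has the lowest GC content of those used for the members, at 38.4%.

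Stk4 was at 4.39, 4.82, 5.62 and 5.74 FPKM in P1 and at 6.71, 4.89, 5.51 and 4.34 FPKM in P7. Both the highest and the lowest of the 8 hearts were P7 hearts. The log2FC was 0.04 (SE 0.19), with a limma adjusted p of 0.897. A second locus with the same symbol and the same span, chr2:164053540-164155619, was at 1.15, 0.868, 0.584 and 1.56 FPKM in P1 and at 2.28, 1.66, 2.02 and 1.65 FPKM in P7. The stages did not overlap at this second locus, with P7 higher, and it did not pass the test (log2FC 0.53, SE 0.20, limma adjusted p = 0.185). With both loci summed, the Stk4 log2FC was 0.20.

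Sav1 was at 10.4, 9.40, 8.79 and 13.8 FPKM in P1 and at 14.9, 10.7, 16.8 and 12.9 FPKM in P7. The stages overlapped through P1 replicate 4, which was above P7 replicates 2 and 4. The log2FC was 0.35 (SE 0.20), with a limma adjusted p of 0.366. It was 0.10 with median-ratio scaling, 0.64 with GC correction (limma adjusted p = 0.153) and 0.37 with both (limma adjusted p = 0.0728), and was called in none of them. The files give the span of the Sav1 locus, chr12:69803658-69987025, to Map4k5 as well, so the locus is a span of the assembly and not the gene alone.

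The kinases that act directly on YAP1 and TAZ, Lats1 and Lats2, did not pass the test. Lats2 was at 33.0, 29.6, 26.8 and 40.4 FPKM in P1 and at 35.7, 26.2, 38.9 and 32.4 FPKM in P7, and its highest and lowest hearts were P1 replicate 4 and P7 replicate 2. The log2FC was 0.04 (SE 0.20), with a limma adjusted p of 0.918. The files name this locus for both Lats2 and Xpo4, the gene of a nuclear transport receptor, so the value may hold fragments of both. Lats1 was at 8.0, 7.12, 6.85 and 10.3 FPKM in P1 and at 11, 7.72, 10.2 and 8.56 FPKM in P7, with overlap of the stages. Its log2FC was 0.20 (SE 0.19), with a limma adjusted p of 0.552. With median-ratio scaling the log2FC was -0.05 for Lats1, -0.23 for Lats2 and -0.19 for Stk4, so the sign turned under this scaling in all 3. That scaling moved the median of the annotated loci from 0.19 to -0.01.

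The levels of the members kept a similar order at both stages. In P1 the mean FPKM ran from Tead1 through Lats2, Wwtr1, Yap1, Stk3, Sav1, Vgll4, Lats1 and Stk4 to Tead4. In P7 Wwtr1 stood above Lats2, and Vgll4 came next after Yap1, above Sav1, Stk3 and Lats1. The ranges of neighbours did not overlap between Tead1 and the next gene, between Lats1 and Stk4, or between Stk4 and Tead4 at either stage, nor between Yap1 and the gene after it. The other neighbours overlapped. Yap1 was below Wwtr1 in all 8 hearts. In P1, Vgll4 was above Lats1 in 3 of 4 hearts.

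The members also moved together from heart to heart within a stage. P1 replicate 4 had the highest value of its stage for 10 of 10 members, and P1 replicate 3 the lowest for 7. In P7, replicate 3 was highest for 7 members and replicate 2 lowest for 7. The size factors over annotated loci had the same extremes, with P1 replicate 4 at 1.165, P1 replicate 3 at 0.776, P7 replicate 3 at 1.296 and P7 replicate 2 at 0.939.

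Ratios of a pair of members within a heart do not depend on this scaling, and 5 were compared. The exact permutation test on the mean log2 ratios, two-sided, can give no p below 0.0286 with 4 hearts against 4, and p-values were adjusted over the 5 ratios. Wwtr1 to Yap1 ran from 1.15 to 1.43 in P1 and from 1.14 to 1.36 in P7 (log2 difference 0.03, SE 0.10, exact p = 0.83). Vgll4 to Yap1, the antagonist against the coactivator, was 0.386, 0.266, 0.369 and 0.341 in P1 and 0.524, 0.584, 0.492 and 0.526 in P7. Every P7 ratio was above every P1 ratio, with a log2 difference of 0.65 (SE 0.13, exact p = 0.0286, adjusted p = 0.0714). After GC correction the difference was 0.11 (exact permutation p = 0.514).

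Lats2 to Lats1 was 4.13, 4.15, 3.92 and 3.92 in P1 and 3.25, 3.39, 3.82 and 3.78 in P7. Every P7 ratio was below every P1 ratio, by a narrow margin, with a log2 difference of -0.18 (SE 0.06, exact p = 0.0286, adjusted p = 0.0714). The Lats2 locus also names Xpo4, so this ratio may hold fragments of both genes. The GC content used for that locus, 42.8%, is that of the longest transcript of either gene. For Lats1 it is 43.0%. Stk4 to Stk3 ran from 0.307 to 0.551 in P1 and from 0.377 to 0.603 in P7 (log2 difference 0.28, SE 0.25, exact p = 0.286). With both Stk4 loci summed the difference was 0.46 (exact permutation p = 0.114), and with GC correction 0.14 (exact permutation p = 0.657). Tead4 to Tead1 ran from 0.0145 to 0.0249 in P1 and from 0.0214 to 0.0324 in P7 (log2 difference 0.25, SE 0.23, exact p = 0.429), and after GC correction the difference was -0.49 (exact permutation p = 0.0571). Without P1 replicate 3, the heart with the lowest ratio, it was 0.06. None of the 5 passed the threshold after adjustment.

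**Figure D4:**
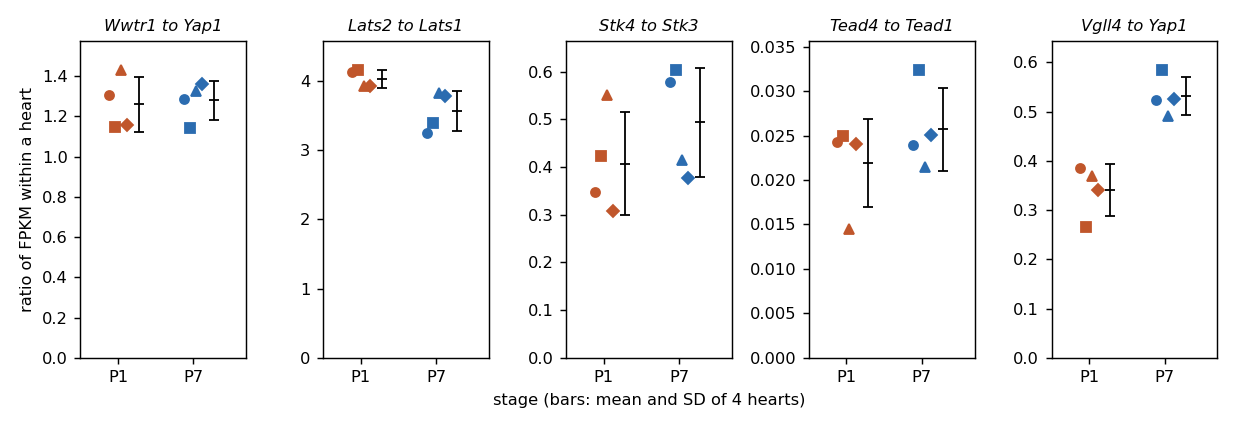
Ratio of the FPKM of 2 members within each heart, with 1 panel for each of 5 ratios, 4 P1 hearts (orange) and 4 P7 hearts (blue), replicate shown by marker, and bars for the mean and SD of 4 hearts. The stages do not overlap for Lats2 to Lats1 (lower in P7) and Vgll4 to Yap1 (higher in P7), and overlap in the other 3 panels. The Lats2 locus also names Xpo4.

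Around the members, 70 further pathway and target genes were listed by role and 66 of them passed the filter on low values. Of these, 5 were called higher and none lower in P7, against 7.74% and 0.401% of annotated loci. Their median log2FC was 0.27, with 50 positive and 16 negative. At an unadjusted p under 0.05 limma gave 18 higher and 1 lower of the 66, beside 25.6% and 4.1% of annotated loci. The stages did not overlap in 14 of them, with P7 higher in 12 and lower in 2, Mob1b and Slmap, against 17.3% and 2.69% of annotated loci. With median-ratio scaling 5 were called higher and 3 lower, and after GC correction 2 were called, both higher, Gadd45a and Vgll3. Without P1 replicate 4 there were 15 calls, without P7 replicate 2 there was 1, and without any other single heart there was none. The calls over all annotated loci went the same way, with 2539 higher without P1 replicate 4, 517 without P7 replicate 2 and 25 to 392 without another heart. Slmap was named after its values were seen.

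Among partners of the core kinases, none of 4 was called (2 positive, 2 negative, median log2FC -0.06). Mob1b, an adaptor that LATS kinases need for activity, was at 57.3, 55.2, 52.6 and 55.7 FPKM in P1 and at 41.3, 30.8, 46.5 and 40.5 FPKM in P7. The P7 hearts were all below the P1 hearts, with a log2FC of -0.48 (SE 0.18) that did not pass the test (limma adjusted p = 0.187) but was called with median-ratio scaling. Its paralogue Mob1a overlapped between the stages, with a log2FC of 0.22 (SE 0.20). Stk38, a kinase related to LATS, had a log2FC of 0.15 (SE 0.20, limma adjusted p = 0.667).

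Of 21 upstream regulators tested, 1 was called higher, Map4k2, a kinase that can phosphorylate LATS alongside the MST kinases. It was at 7.41, 9.65, 5.37 and 8.28 FPKM in P1 and at 13.8, 19.8, 17.4 and 13.5 FPKM in P7, with no overlap. Its log2FC was 0.99 (SE 0.21), with a limma adjusted p of 0.0264. The list had 17 positive and 4 negative values and a median of 0.40. Of 9 genes of STRIPAK, the phosphatase complex that switches off the MST kinases, 1 was called higher, the striatin Strn4. It was at 46.0, 30.4, 31.4 and 41.6 FPKM in P1 and at 55.5, 66.6, 85.6 and 61.5 FPKM in P7, with no overlap, and its log2FC was 0.84 (SE 0.21, limma adjusted p = 0.0468). Slmap, another subunit of the complex, was at 150 to 190 FPKM in P1 and 93.2 to 143 in P7 (log2FC -0.40, SE 0.20, limma adjusted p = 0.308). None of 9 genes for 14-3-3 proteins, which hold phosphorylated YAP1 in the cytoplasm, and for its turnover was called. The most abundant were Ywhae (log2FC -0.06, SE 0.21) and Ywhaz (log2FC -0.20, SE 0.19).

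The 3 other TEAD and VGLL genes that passed the filter, Tead2, Tead3 and Vgll3, had a median log2FC of 0.69, beside 0.19 over annotated loci. Each was without overlap between the stages and higher in P7, as were 17.3% of annotated loci, and none was called. Vgll3, another TEAD-binding cofactor, was at 1.63 to 2.41 FPKM in P1 and 3.43 to 3.99 in P7, with a log2FC of 0.61 (SE 0.18, limma adjusted p = 0.0793) and a transcript GC content of 40.7%. Vgll1 and Vgll2 did not reach FPKM of 1 in any heart.

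Genes often used to read YAP1 and TAZ activity gave 3 calls in 20, all higher in P7, where 7.74% of annotated loci were called higher and 0.401% lower. No test set this list against other genes. Axl, a receptor tyrosine kinase, was at 14.1, 14.9, 9.18 and 26.1 FPKM in P1 and at 40.6, 35.8, 43.8 and 35.9 FPKM in P7 (log2FC 1.31, SE 0.26, limma adjusted p = 0.0208). Gadd45a, a stress response gene, was at 2.28, 2.52, 2.04 and 3.38 FPKM in P1 and at 8.29, 4.25, 8.31 and 5.13 FPKM in P7 (log2FC 1.04, SE 0.23, limma adjusted p = 0.0295). Arhgef17 was at 5.15, 3.93, 3.02 and 8.02 FPKM in P1 and at 11.3, 9.88, 11.2 and 8.94 FPKM in P7 (log2FC 0.97, SE 0.24, limma adjusted p = 0.0437). In all 3 genes the P7 hearts were above the P1 hearts without overlap, as in 17.3% of annotated loci. After GC correction only Gadd45a of these was called.

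The best known targets of the pathway did not pass the test. Cyr61, a secreted matrix protein, was at 11.7, 10.8, 10.4 and 15.5 FPKM in P1 and at 10.6, 7.73, 25.6 and 20.2 FPKM in P7 (log2FC 0.25, SE 0.31, limma adjusted p = 0.633). Ctgf, its relative, was at 52.7, 66.0, 50.3 and 108 FPKM in P1 and at 88.8, 46.7, 96.0 and 89.4 FPKM in P7 (log2FC 0.23, SE 0.29, limma adjusted p = 0.646). Ankrd1, a stress-responsive protein of the cardiomyocyte sarcomere, was at 314, 471, 438 and 559 FPKM in P1 and at 598, 440, 659 and 465 FPKM in P7 (log2FC 0.29, SE 0.24, limma adjusted p = 0.494). All 3 overlapped between the stages. The readout list as a whole had 18 positive and 2 negative values and a median of 0.24, beside 0.19 over annotated loci.

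**Figure D5:**
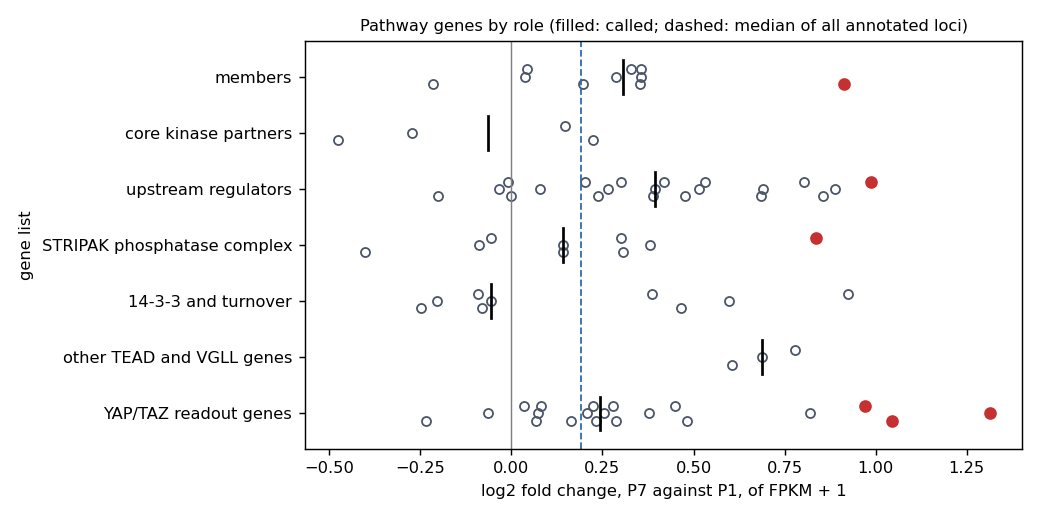
The log2FC, P7 against P1, of each tested gene of the 10 members and 6 lists of other pathway genes, with called genes filled in red, list medians as black bars and the median of all annotated tested loci, 0.19, as a dashed line. Calls are 1 among the members and 5 among the other lists, all to the right of 0.

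Markers of other cell types moved between the stages as well. Fibroblast markers summed to 819 to 1688 FPKM in P1 and 1745 to 2181 in P7, with 4 of 7 called higher, and endothelial markers to 136 to 217 and 254 to 378, with 3 of 7 called higher. Smooth muscle and pericyte markers summed to 301 to 623 FPKM in P1 and 245 to 373 in P7, with 1 of 6 called higher and 1 lower. Among 9 cardiomyocyte markers none was called, but in 2 of them, Myl3 and Tnni3, the stages did not overlap, with P7 higher. The log2FC was 0.97 for Myl3 (limma adjusted p = 0.057) and 0.87 for Tnni3 (limma adjusted p = 0.147). Actc1 and Ryr2 had a negative log2FC, at -0.26 and -0.13. Of all annotated loci, 7.74% were called higher and 0.401% lower. Not every marker of a list rose. The endothelial marker Emcn had every P7 heart below every P1 heart (log2FC -0.43), and the fibroblast marker Postn had a log2FC of -0.19, neither called. No marker of these lists was at 0 in every heart. Their part in the values of Vgll4, Axl and the other genes called was not tested.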

How the data were processed

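Whole hearts of 4 P1 and 4 P7 mice were sequenced as ribodepleted, paired-end libraries. The deposited values are FPKM per locus, which the authors' provider made by aligning reads to GRCm38 (a build also named in the submitters' processing notes), summing over loci and normalizing; the aligner is not given in the sources used here. No counts were used here, and the relative depth of the hearts was read from the smallest FPKM steps. File starts count from 0 and are given here from 1. Groups and replicate numbers came from the sample titles.

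Loci that reached FPKM of 1 in any heart were fitted on log2(FPKM + 1) with limma 3.58.1 (R 4.3.3; lmFit, eBayes with trend), all 8 hearts and no covariate, with Benjamini-Hochberg adjustment across every locus tested. Ratios were compared with scipy 1.17.1. The members and gene lists were chosen with earlier results of these data known. Named were the members, Tead2, Tead3, Cyr61, Ctgf and Ankrd1, and from each list the called genes, at most 4, or where none was called the 2 with the highest mean FPKM; Mob1a, Vgll3 and Slmap were added after their values were seen. Promoter windows are from RefSeq. For a locus that names several genes, GC content and transcript length were those of the longest transcript of any of them.

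Alternatives were a pseudocount of 0.1, no filter, FPKM of at least 1 in every heart, median-ratio scaling, the replicate number as a block, GC correction (lowess with a span of 0.3 on the GC content of GENCODE M21 transcripts, known for 78 of 80 listed genes and 85.9% of annotated loci tested), eBayes without trend, summed loci, and each heart left out. Also examined were markers of atrial (3 listed), leukocyte (6), red cell (6), epicardial (4), nerve and Schwann (4) and neighbouring tissue (4) cells, none of which had a gene called. Single hearts still stood out for neighbouring tissue. Ucp1 was at 10.3 FPKM in P7 replicate 4 and 3.08 in P7 replicate 2, and at most 0.147 elsewhere. Alb was at 40.3 FPKM in P1 replicate 1 and 23.7 in P1 replicate 3, and at most 5.63 elsewhere. Red cell markers summed to 1635 to 3851 FPKM in P1 and 3743 to 5018 in P7.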

Additional observations from a re-analysis of the deposited data

Results flagged for a closer look

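Of 50 groups of 4 hearts examined (genes and ratios at each stage), 2 had a heart set apart from the other 3 by a gap, as a share of the group's range, past Dixon's 95% critical value, where about 1 in 20 groups, or 2.5, would by chance. Ctgf in P7 hearts had replicate 2 low, at 46.7 FPKM against 88.8 to 96.0 in the others (gap 0.854 of the range). The Tead4 to Tead1 ratio in P1 hearts had replicate 3 low, at 0.0145 against 0.0240 to 0.0249 (gap 0.932 of the range), in the heart where Tead4 was at 1.05 FPKM.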

How the results depend on the processing

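Of the 10 members, 1 (Vgll4) was called in the fit as reported. The number was 0 with no filter, with the replicate block, with GC correction, with both of these, and with GC correction plus median-ratio scaling (chosen after seeing the data), and 0 to 1 with a heart left out, 1 only without P1 replicate 4. It was 1 with the pseudocount of 0.1, the filter on every heart, median-ratio scaling, eBayes without trend and summed loci, the last of which leaves the Vgll4 values as they were. The limma adjusted p of Vgll4 ranged from 0.00843 to 0.266 over all alternatives, and was 0.0619 with no filter and 0.0534 with the block. Of the other pathway genes, 5 were called as reported, 1 with no filter, 14 with the filter on every heart, 8 with median-ratio scaling (5 higher and 3 lower, Mob1b, Slmap and Stk38l), 3 with the replicate block, 2 with GC correction, 1 with block and GC correction, 3 without trend, 3 with GC correction and median-ratio scaling, and 0 to 15 with a heart left out, 15 without P1 replicate 4. Annotated loci called numbered 1390 higher and 72 lower as reported, 1348 and 765 with median-ratio scaling, 385 and 26 with GC correction, 2424 and 149 with the filter on every heart, 25 and 0 without P1 replicate 2, and 2539 and 101 without P1 replicate 4.

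Directions that turned were all of values that did not pass the test: Tead4 at -0.048 with GC correction, with and without the replicate block, and -0.25 with median-ratio scaling added, Lats1 at -0.048 and Lats2 at -0.23 with median-ratio scaling, Stk3 at 0.066 with GC correction, with and without the block, and Stk4 at -0.19 with median-ratio scaling and -0.065 with GC correction added. With a heart left out, Stk3 ranged from -0.319 to -0.048, Tead4 from 0.165 to 0.459, Lats2 from -0.045 to 0.145, Stk4 from -0.053 to 0.124, and Wwtr1 to Yap1 from -0.018 to 0.089. With GC correction the log2 difference was -0.49 for Tead4 to Tead1 and 0.11 for Vgll4 to Yap1. Yap1, Wwtr1, Tead1 and Sav1 had a positive log2FC in every alternative run, but of only 0.02 to 0.10 with median-ratio scaling. Changes of filter, trend or block leave the log2FC of a member as it is. Lats2 to Lats1 had a negative difference in each of its alternatives, and it was -0.20 with GC correction. Its other alternatives could not turn the sign, since the stages did not overlap and neither symbol has another locus to sum. The cause of the changes between settings was not tested.

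Replicate numbers gave no sign of pairing. Deviations from stage means had correlations of -0.10 to 0.12 for same-numbered hearts and -0.16 to 0.10 for different-numbered hearts. So few pairs cannot show that the hearts were unpaired. Depth limits Tead4 most, with the fewest fragments of the members.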
